A study of Homo sapiens with 4 samples.

Results

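Transcripts of 10 genes of matrix breakdown and its control were followed in MCF12A cells, an established non-tumorigenic line of human breast epithelium. They were 6 matrix metalloproteinases (MMP1, MMP2, MMP9, MMP10, MMP14 and MMP28), the related membrane protease ADAM12, and 3 tissue inhibitors of metalloproteinases (TIMP1, TIMP2 and TIMP3). The genes are a part of these families, chosen with earlier results of these arrays known, and do not stand for whole families. They came from the 18417 genes that had a probe set naming 1 gene. Each was read from the probe set with the highest mean. The cells grew as monolayers in a medium that all groups shared, supplemented with horse serum, insulin, hydrocortisone, cholera toxin and epidermal growth factor. There was 1 Affymetrix Human Gene 1.0 ST array each for cells kept 1 week in 25 mM ethanol, for their unexposed culture (control 1), for cells kept 1 week in 2.5 mM acetaldehyde, and for their unexposed culture (control 2).

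Matrix metalloproteinases are zinc enzymes, secreted or held at the cell surface, that cleave collagens, laminins and other matrix proteins. They are made as inactive precursors and are blocked one to one by TIMPs. MMP14 at the cell surface activates the MMP2 precursor with TIMP2 as a bridge between them, so this inhibitor also takes part in activation. In the mammary gland these enzymes are known for remodelling around growing ducts and during involution, where much of the MMP expression lies in the stroma and not in the epithelium.

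Values are RMA intensities, a background-corrected and normalized brightness per probe set, and differences are on the log2 scale, where 1 is 2-fold. The number of arrays limits their precision, and a comparison of 1 array with 1 has no replicate check and no test. A gene was kept as bright enough if at least 1 of its 4 values came to an intensity of 155, the median over the probe sets that name 1 gene. This kept 10373 genes and 7 of the 10 members. MMP1, MMP9 and MMP10 stayed below it on all 4 arrays, and ADAM12 reached it on the ethanol array alone, so its being kept depended on its being high there. Sorted log2 values of 2 arrays differed on average by 0.0398 for ethanol and its control and by 0.0268 for acetaldehyde and its control, but by 0.270 to 0.285 between experiments. Levels set across the pairs therefore carry a difference in scale.

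**Figure D1:**
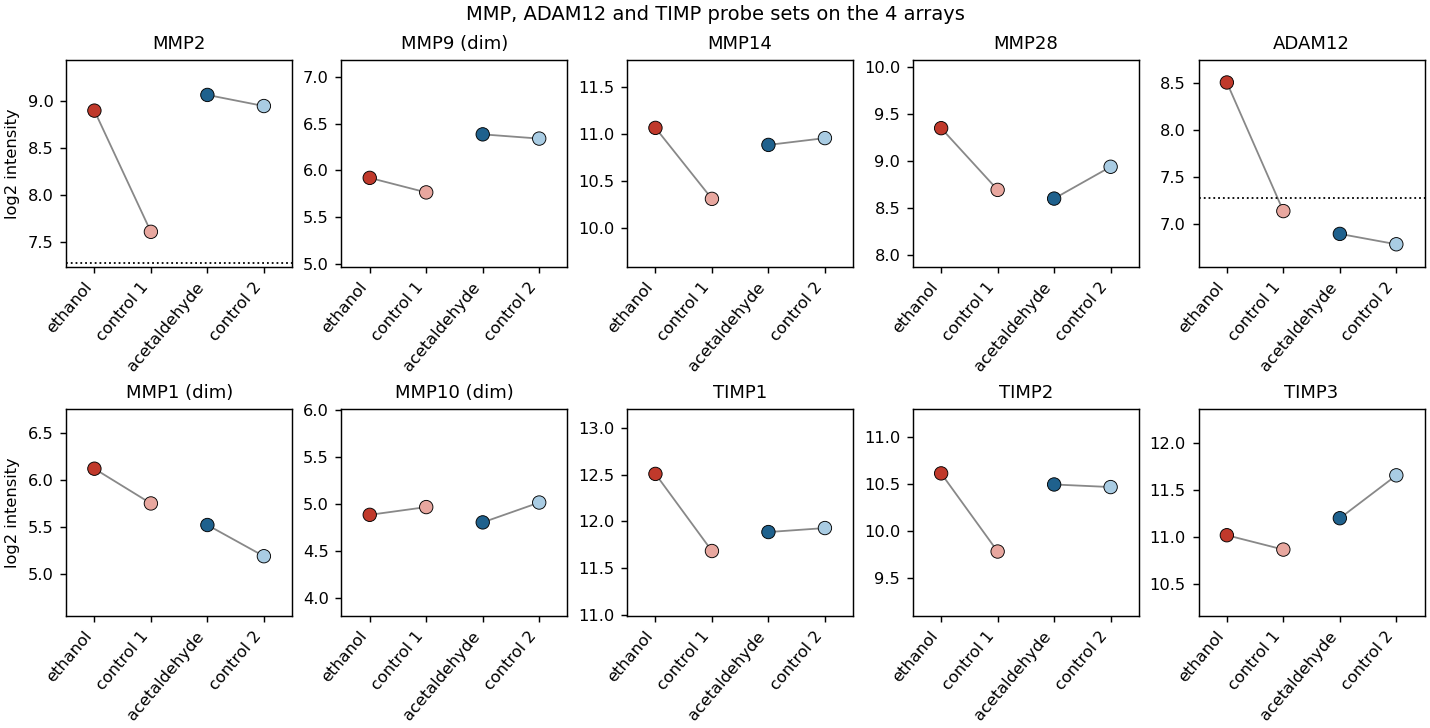
Log2 intensity of the 10 members on the ethanol, control 1, acetaldehyde and control 2 arrays, 1 point per array, with a line joining each exposed array to its own control. Every panel spans the same log2 range around its own middle, the dotted line is the brightness filter (7.28), and dim marks members below it on all arrays. The steep lines are those of ADAM12 and MMP2 in the ethanol pair.

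Ethanol was set against control 1 to ask how these genes differed after 1 week of alcohol. ADAM12 and MMP2 were each more than 2-fold higher with ethanol, and MMP14, MMP28, TIMP1 and TIMP2 were 1.58-fold to 1.78-fold higher. These proteases and inhibitors differed in the same direction. TIMP3 differed little in its brighter probe set, and the 3 dim proteases were within 0.37 of control 1.

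MMP2, gelatinase A, which degrades basement membrane collagen and denatured collagens, had an intensity of 478 with ethanol and 195 in control 1, and 537 with acetaldehyde and 495 in control 2. It was 2.45-fold higher with ethanol than in control 1 (log2 difference 1.29), and 42 of the 10373 kept genes had a larger difference in that direction. Control 1 was the low array for this gene, since the other 3 lay within a narrow range. MMP9, gelatinase B, was dim, at 60.6 with ethanol and 54.4 in control 1, and at 83.6 with acetaldehyde and 81.0 in control 2.

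MMP14, the membrane-type protease that activates the MMP2 precursor, had 2141 with ethanol and 1268 in control 1, and 1888 with acetaldehyde and 1985 in control 2. The ethanol array was 1.69-fold above control 1 (0.76) and control 1 was again the lowest of the 4. MMP28, epilysin, an MMP known from keratinocytes and testis, had 654 with ethanol and 415 in control 1, and 389 with acetaldehyde and 492 in control 2. It was 1.58-fold higher with ethanol (0.66), and the ethanol array stood above the other 3, which did not share a low control 1.

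ADAM12, a disintegrin and metalloproteinase that sheds growth factor precursors from the cell surface, had 362.5 with ethanol and 140 in control 1, and 119 with acetaldehyde and 110 in control 2. It was 2.58-fold higher with ethanol (1.37). ADAM12 was kept only through that array, so its rank among kept genes is not given. The ethanol array stood apart from all others, the controls included, but the other 3 values lay below the filter intensity of 155, where sizes are least certain.

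MMP1, interstitial collagenase, and MMP10, stromelysin 2, lie side by side in a cluster of MMP genes. MMP1 had 69.4 with ethanol and 53.7 in control 1, and 45.8 with acetaldehyde and 36.4 in control 2. MMP10 had 29.5 with ethanol and 31.2 in control 1, and 27.9 with acetaldehyde and 32.3 in control 2. Each of the 9 MMP genes of that cluster, MMP7, MMP20, MMP27, MMP8, MMP10, MMP1, MMP3, MMP12 and MMP13, was dim, with intensities from 10.8 to 69.4. No gene of that cluster was therefore measured above the filter in either exposure or control.

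Among the inhibitors, TIMP1 is also known to act as a growth factor. Its intensity was 5819 with ethanol and 3294 in control 1, and 3788 with acetaldehyde and 3902 in control 2. It was 1.77-fold higher with ethanol (0.82), and the ethanol array stood above the other 3. TIMP2, the inhibitor that bridges MMP14 and the MMP2 precursor, had 1569 with ethanol and 881 in control 1, and 1446 with acetaldehyde and 1418 in control 2. It was 1.78-fold higher with ethanol (0.83), while control 1 was the low array and the other 3 lay close together, the pattern seen for MMP14 and MMP2.

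TIMP3, the inhibitor that binds the matrix and also blocks ADAM proteases, had 2 probe sets. The brighter one had 2072 with ethanol and 1864 in control 1, and 2349 with acetaldehyde and 3224 in control 2. The dimmer one had 519 with ethanol and 343 in control 1, and 474 with acetaldehyde and 632 in control 2. The ethanol difference was 0.15 in the brighter and 0.60 in the dimmer probe set, so the size of a TIMP3 difference with ethanol depended on the probe set.

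Over the members, 2 of the 10 (both kept) were at least 2-fold higher with ethanol. Of kept genes 1.17% were, and of all 18417 genes 0.782%. At 1.5-fold 6 of the 10 members were higher, against 5.44% of kept genes and 3.9% of all genes. No member was lower by that size, where 3.48% of all genes and 4.22% of kept genes were. By any amount 9 of the 10 members were higher than control 1, MMP10 (-0.08) being the exception. Of all genes 47.7% were, and of kept genes 57.8%. The median difference over the 10 members was 0.71, beside -0.01 over all 18417 genes and 0.05 over kept genes. These counts describe genes chosen with earlier results of these arrays known. Of the 10 members 6 (MMP14, MMP28, ADAM12, TIMP1, TIMP2 and the dim MMP1) had their ethanol value above both controls. Of all genes 24% did, and of kept genes 35.2%. ADAM12 passed the filter only through its ethanol array, so the count of members was taken without the filter. MMP2 and TIMP3 did not lie above both controls, and for MMP14 and TIMP2 the ethanol array exceeded control 2 by only 0.11 and 0.15.

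**Figure D2:**
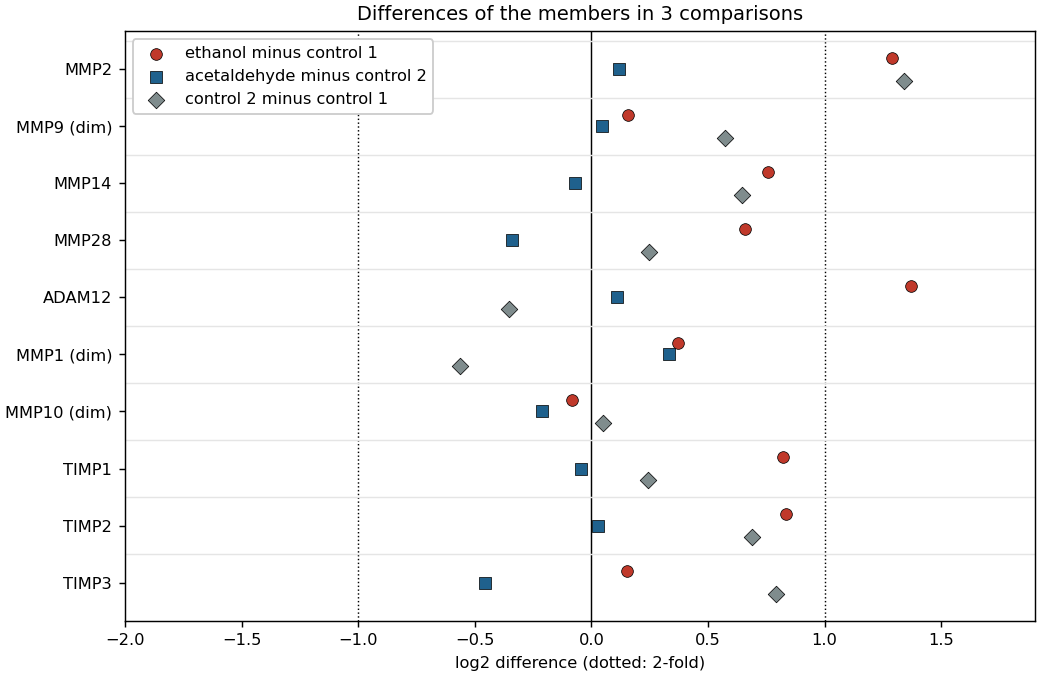
Log2 differences of the 10 members in 3 comparisons, ethanol minus control 1 (circles), acetaldehyde minus control 2 (squares) and control 2 minus control 1 (diamonds), each from 1 array against 1. Circles of MMP2 and ADAM12 lie past 1 (2-fold), all squares lie between -0.46 and 0.33, and the diamonds of ADAM12 and MMP1 lie left of 0.

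The promoters of members with a difference in ethanol are shown because ADAM12, MMP14 and TIMP1 were higher together, and that of MMP10 because this gene was dim on all arrays. RefSeq promoter sequence (build GRCh38.p14) was at hand for 5 of the 10 members, and the 250 bases before the annotated start are printed 5′ to 3′ on the strand of the gene. They lie at chr10:126388478-126388727 (minus strand) for ADAM12, chr14:22836335-22836584 (plus strand) for MMP14, chrX:47582186-47582435 (plus strand) for TIMP1 and chr11:102780629-102780878 (minus strand) for MMP10. Capitals mark matches on either strand to the AP-1 motif TGANTCA, its variant TGAGTAA, the GC box GGGCGG, the TATA box TATAAA and the CCAAT box.
ADAM12: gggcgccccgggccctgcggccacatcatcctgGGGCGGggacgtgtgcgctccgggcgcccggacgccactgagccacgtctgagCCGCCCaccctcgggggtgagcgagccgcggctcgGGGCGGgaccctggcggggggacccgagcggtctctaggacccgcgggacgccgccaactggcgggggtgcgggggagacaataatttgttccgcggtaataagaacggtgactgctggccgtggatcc
MMP14: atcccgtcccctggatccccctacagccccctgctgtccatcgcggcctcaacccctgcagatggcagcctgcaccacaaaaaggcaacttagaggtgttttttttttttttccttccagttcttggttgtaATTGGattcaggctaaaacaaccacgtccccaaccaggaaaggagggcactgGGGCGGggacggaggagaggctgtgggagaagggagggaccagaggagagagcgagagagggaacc
TIMP1: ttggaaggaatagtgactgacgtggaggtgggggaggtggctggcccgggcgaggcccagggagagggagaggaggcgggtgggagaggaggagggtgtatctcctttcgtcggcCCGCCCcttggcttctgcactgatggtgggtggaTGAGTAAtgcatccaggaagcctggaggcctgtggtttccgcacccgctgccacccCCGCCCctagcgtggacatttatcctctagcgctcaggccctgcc
MMP10: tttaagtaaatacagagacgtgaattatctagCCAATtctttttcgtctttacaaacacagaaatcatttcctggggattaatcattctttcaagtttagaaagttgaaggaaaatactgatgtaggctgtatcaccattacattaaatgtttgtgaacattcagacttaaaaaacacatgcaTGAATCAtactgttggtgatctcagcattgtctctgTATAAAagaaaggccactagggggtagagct

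TGANTCA, the site of AP-1 factors that is known from collagenase and stromelysin promoters, matched in 1 of the 5 windows, that of MMP10, starting 67 bases before the start, with TATAAA 31 bases before it. TGANTCA was present in 6.57% of 35116 promoter windows of the same length and TATAAA in 10.7%. TIMP1 held TGAGTAA 101 bases before its start, a variant present in 2.21% of windows. GGGCGG, present in 42.6% of windows, had 3 matches in ADAM12, 2 in TIMP1 and 1 in MMP14. CCAAT, present in 32% of windows, had 1 match each in MMP14, MMP10 and TIMP3. Neither TGANTCA nor TATAAA occurred in the windows of ADAM12, MMP14, TIMP1 or TIMP3, and the G and C content was 73.6% in ADAM12, 56.8% in MMP14, 64.8% in TIMP1 and 34.4% in MMP10. TIMP3, not printed, had 5 matches to GGGCGG. Its ethanol difference was under 1.5-fold in the brighter probe set and 1.51-fold in the dimmer one. It is therefore no clear example of a member without a 1.5-fold ethanol difference.

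Acetaldehyde, the first oxidation product of ethanol, was set against control 2. None of the 10 members was 2-fold or 1.5-fold apart, where 0.261% of all genes were at least 2-fold and 2.1% at least 1.5-fold apart. The differences ran from -0.46 to 0.33 with a median of -0.01, beside -0.02 over all genes. MMP2 (0.12), ADAM12 (0.11), TIMP2 (0.03), TIMP1 (-0.04) and MMP14 (-0.07) lay within 0.12 of control 2, and TIMP2 turned to -0.03 when all 4 arrays were quantile normalized together.

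TIMP3 was the member with the lowest value relative to control 2, 1.37-fold lower with acetaldehyde (-0.46) in its brighter probe set and 1.33-fold lower (-0.41) in the other, so the probe sets gave the same direction. Of the kept genes 218 had a lower difference than TIMP3. Its acetaldehyde value nevertheless lay above those of ethanol and control 1 in the brighter probe set, and control 2 was its highest array. MMP28 was 1.26-fold lower with acetaldehyde (-0.34), and its value of 389 lay below both controls. The dim MMP10 also lay below both controls, which made 2 of the 10 members, where 21% of all genes and 24.9% of kept genes did. The dim MMP1 was at 0.33 and MMP10 at -0.21. MMP14, MMP28, TIMP1 and TIMP3 were higher with ethanol and lower with acetaldehyde than their controls. They were 4 of the 10 members, beside 20.7% of all genes and 22.4% of kept genes.

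**Figure D3:**
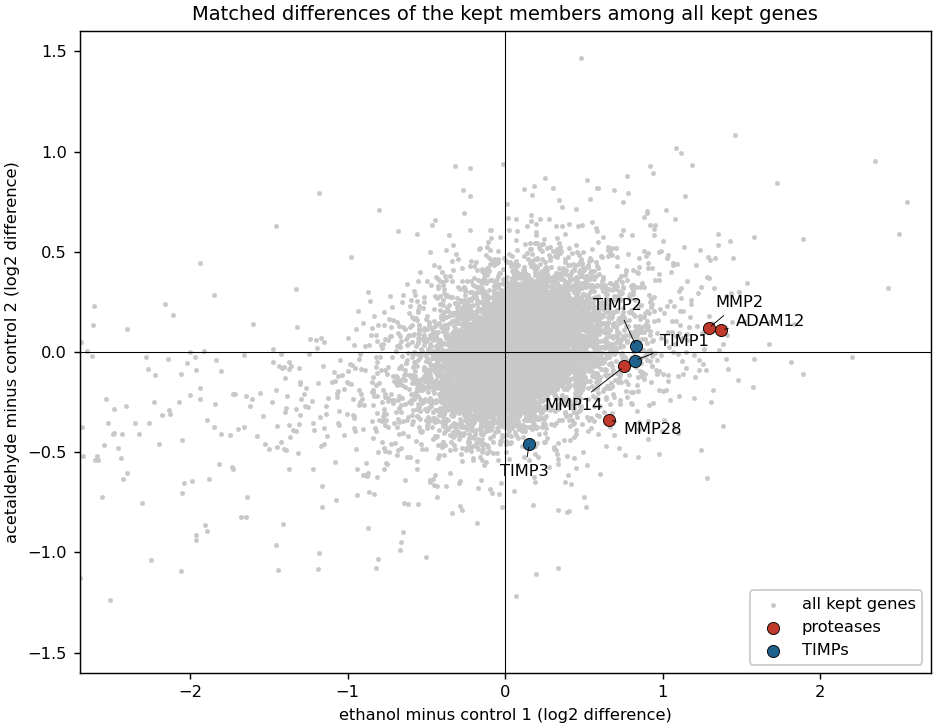
Log2 difference of ethanol from control 1 (horizontal) and of acetaldehyde from control 2 (vertical) for 10373 kept genes (grey), with the 4 kept proteases and the 3 TIMPs marked. The 7 members lie right of 0, between 0.15 and 1.37, and from -0.46 to 0.12 on the vertical axis. The axes leave out 42 genes.

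Control 2 was compared with control 1 to show how far unexposed cultures of the experiments lay apart, across arrays on different scales. MMP2 in control 2 exceeded control 1 by 2.53-fold (1.34), beside 1.29 with ethanol. TIMP3 (0.79), TIMP2 (0.69) and MMP14 (0.65) were 1.57-fold to 1.73-fold higher, and MMP28 (0.25) and TIMP1 (0.24) were closer. ADAM12 was lower in control 2 (-0.35), against its direction with ethanol. In all 1 of the 10 members was at least 2-fold higher in control 2, where 5.36% of all genes and 4.25% of kept genes were. At 1.5-fold 4 were higher, where 21.1% of all genes and 14.9% of kept genes were.

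With each array centred on its own median, the median of all kept genes in control 2 minus control 1 moved to -0.27, against 0.06 as deposited. The kept members then stood at 4 higher and 3 lower in control 2, against 6 and 1 as deposited, since MMP28 and TIMP1 turned to -0.06. The share of kept genes higher in control 2 was 29.1% with centring and 54.5% as deposited. MMP10 (0.05 as deposited) turned to -0.45 with joint quantile normalization. The ethanol comparison and this one share control 1. As deposited, control 1 was the lowest of the 4 arrays for MMP2, MMP9, MMP14, TIMP1, TIMP2 and TIMP3. They were 6 of the 10 members, beside 29.9% of all genes and 31.4% of kept genes. That ranking crosses the difference in scale, and with centring TIMP1 was lower in control 2 than in control 1. Both differences subtract the same array, so neither is independent of the other. The exposure and a deviation of control 1 cannot be told apart for any member. ADAM12 and MMP28 did not have control 1 as their lowest array, but their ethanol differences also rest on 1 array against 1.

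Setting both exposed arrays against their own controls in 1 fit, with the experiment as a block, allows a test with 1 residual degree of freedom (limma with Benjamini-Hochberg adjustment over 10373 genes). No member passed, as 0 of all kept genes did (0%), while 1024 genes (9.87%) and 0 members had an unadjusted p under 0.05. In this limma fit the mean difference over both exposures was 0.74 ± 0.31 (SE) for ADAM12 and 0.70 ± 0.29 for MMP2, each with an adjusted p of 0.498 and higher in 2 of 2 pairs. For the other kept members the limma adjusted p lay between 0.520 and 0.826. The fit takes the difference between the exposures as its error, and limma then draws this error toward that of the other kept genes. The SE and p of a member thus rest in part on other genes. ADAM12 entered this fit only through its ethanol array, which took it past the filter. For ADAM12 the response to ethanol exceeded that to acetaldehyde by 1.26 and for MMP2 by 1.17. No replicates of either exposure were analysed, so these p-values do not measure a spread between replicate cultures.

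Genes that act with the family were read from lists of related proteases, inhibitors, activators, substrates and transcription factors. With ethanol, 1 of 4 other MMP inhibitors and none of the other lists had a kept gene at least 2-fold apart, and with acetaldehyde no list had one. The ethanol gene was TFPI2, a secreted inhibitor of serine proteases such as plasmin that is reported to restrain MMPs. It had 4033 with acetaldehyde and 2399 in control 2, a difference of 0.75, and differed by 2.55 with ethanol and by 3.56 between control 2 and control 1. Of 16 other MMPs measured, 2 were kept, MMP11 at 0.11 and MMP15 at 0.30 with ethanol, and at -0.14 and -0.16 with acetaldehyde.

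Plasminogen activation, which feeds plasmin into MMP activation, had 6 kept genes with a median of 0.66 with ethanol and 0.05 with acetaldehyde, beside 0.05 and 0.00 over all kept genes. Named after their values were seen, PLAUR, the urokinase receptor, had 1844 with ethanol and 935 in control 1, and 418 with acetaldehyde and 326 in control 2, and PLAU, urokinase, had 1977 with ethanol and 1162 in control 1, and 647 with acetaldehyde and 488 in control 2. Both were higher in each exposed array than in its control (PLAUR by 0.98 and 0.36, PLAU by 0.77 and 0.41). They were lower in control 2 than in control 1 (by -1.52 and -1.25), unlike MMP2, MMP14 and TIMP2.

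The 7 kept genes of other ADAMs had a median of 0.03 with ethanol and -0.07 with acetaldehyde, and ADAM8, named after its value was seen, was at 0.73 with ethanol. Both kept ADAMTS genes were lower, with medians of -0.22 and -0.27 (ethanol and acetaldehyde). The 7 kept activators and inducers had medians of 0.16 and 0.02, with the integrin chain ITGAV at 0.80 and the proprotein convertase PCSK6 at -0.84 with ethanol, both named after their values were seen. ITGB3 of the same list, also named after its values were seen, was dim. It had 140 with ethanol and 57.2 in control 1 (1.29). The 4 kept collagens had medians of -0.06 and -0.04, and ran from -0.25 to 0.13 with ethanol. The 10 transcription factors of the AP-1, ETS and RUNX families had medians of 0.13 and -0.06, and JUNB, named after its values were seen, was lower in both exposures (-0.56 with ethanol and -0.59 with acetaldehyde).

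**Figure D4:**
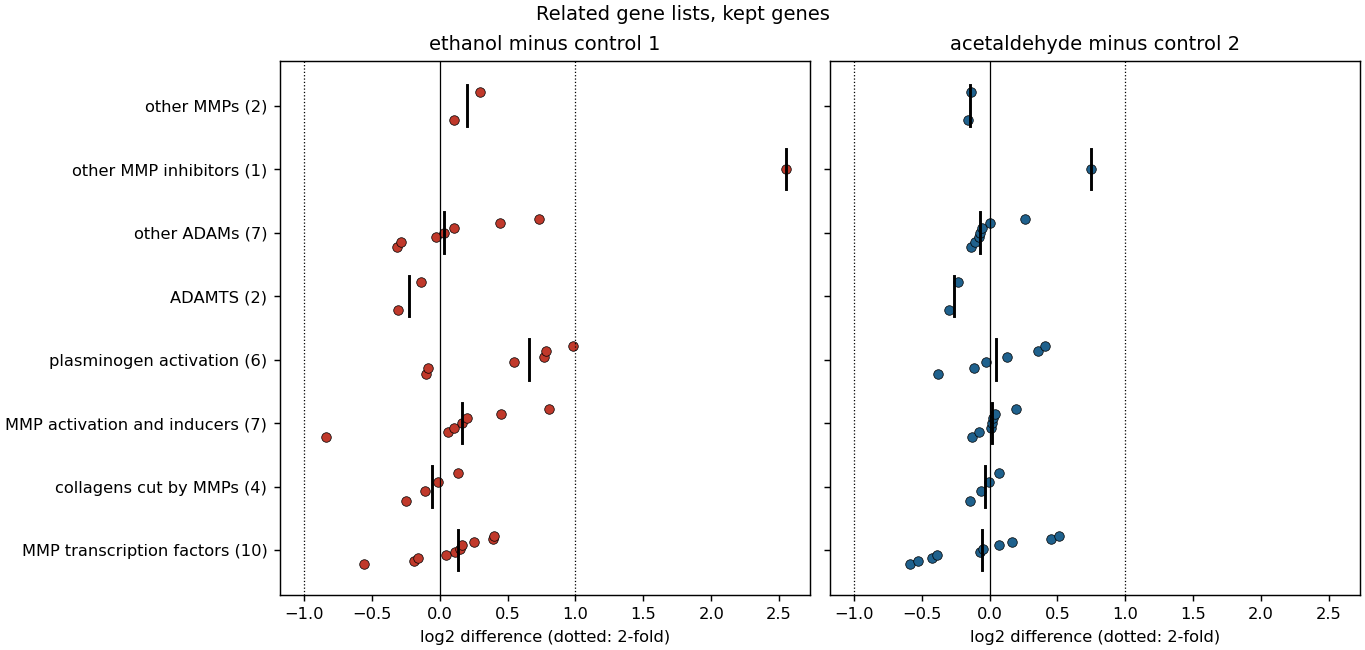
Log2 differences of kept genes of 8 related lists, ethanol minus control 1 (left) and acetaldehyde minus control 2 (right), 1 point per gene, with a bar at the list's median and the number of kept genes in brackets. TFPI2, the single kept gene of the other MMP inhibitors, lies past 2-fold with ethanol, and the plasminogen activation genes lie mostly right of 0 there.

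The genes whose 4 array values were most like those of ADAM12 were TFPI, EVI2A and CLU, at Euclidean distances of 0.12, 0.19 and 0.19 (log2, centred on each gene's mean over 4 arrays). TFPI, tissue factor pathway inhibitor, had 703 with ethanol and 287 in control 1, and 225 with acetaldehyde and 199 in control 2. With 4 arrays such likeness is a description.

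The cultures were checked against cell type markers, since stromal cells are a common source of MMP2 and TIMPs. All 6 measured epithelial markers, KRT5, KRT14, KRT8, KRT18, CDH1 and EPCAM, were kept, and their summed intensity was 25636 with ethanol and 25364 in control 1, and 17747 with acetaldehyde and 19865 in control 2. With ethanol KRT8 (0.75), EPCAM (0.70) and KRT18 (0.63) were higher than in control 1, and KRT14 (-0.66), CDH1 (-0.32) and KRT5 (-0.20) were lower. With acetaldehyde EPCAM (0.35), KRT8 (0.22) and KRT18 (0.12) were higher than in control 2, and KRT14 (-0.95), CDH1 (-0.42) and KRT5 (-0.23) were lower. KRT14 (-1.68), CDH1 (-1.33) and EPCAM (-1.21) were more than 2-fold lower in control 2 than in control 1, whereas KRT8 (-0.29), KRT18 (-0.25) and KRT5 (0.12) were closer. Of 8 fibroblast markers 2 were kept, COL1A1 and DCN, and their summed intensity over the 8 was 518 with ethanol and 603 in control 1, and 947 with acetaldehyde and 977 in control 2. DCN, decorin, had 34.6 with ethanol and 34.8 in control 1, and 187 with acetaldehyde and 177 in control 2. The summed level is in large part signal below the filter, and between experiments it carries the difference in scale. The part of the epithelial and fibroblast markers in the differences of the members was not tested. Of 5 leukocyte markers CD14 and CD68 were kept, while PTPRC, which defines leukocytes, stayed between 10.3 and 15.9 on the 4 arrays. None of 4 endothelial markers was kept. In RNA of whole cultures, a change in the number of cells of a type and a change in RNA per cell cannot be told apart. TIMP1, TIMP2, TIMP3 and MMP28 overlap other protein-coding genes in RefSeq (SYN1, CEP295NL, SYN3 and C17orf50).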

How the data were processed

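RNA of 4 MCF12A cultures was measured, each on 1 array, and groups and pairs were taken from the sample labels. The deposited values are linear intensities, 1 for each probe set on each array, made by RMA per the submitters' processing notes. The software used for RMA is not given in the sources used here. They were put on the log2 scale here without an offset. Of 33297 probe sets 19460 name 1 gene in the platform annotation, 1754 several and 12083 none, and only the first were used. For 19429 of them the gene identifier matched RefSeq (GRCh38.p14), which was used for names, overlaps and promoters.

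Each gene took its probe set with the highest mean, and the filter of log2 7.28 left 10373 of 18417 genes. Matched differences have no test. The blocked fit used limma 3.58.1 (lmFit, eBayes) under R 4.3.3 and was tested on simulated data. There both exposures had the same added change, so the simulation does not show how the fit behaves where the responses differ. Figures and counts used Python 3.11.15, pandas 2.3.3 and matplotlib 3.10.9. The members, lists, motifs and rule for named genes were chosen with earlier results of these data known. The rule names all members and, at most 4 per list, the kept list genes at least 2-fold apart with either exposure. Alternatives were joint quantile normalization, centring, an offset of 16, the mean of probe sets, no filter, a 1.5-fold threshold, the other experiment's control, an intensity trend and no block. Arrays carry no read depth.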

Additional observations from a re-analysis of the deposited data

Results flagged for a closer look

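For 4 of the 10 members the matched differences had opposite signs, higher with ethanol and lower with acetaldehyde. Of all genes 20.7% did, and of kept genes 22.4%. The ethanol difference exceeded the acetaldehyde difference by 0.83 for MMP14, 0.996 for MMP28, 0.86 for TIMP1 and 0.61 for TIMP3 (log2). The difference between the responses was not tested, as each rests on 1 array per arm. For MMP14 (-0.07) and TIMP1 (-0.04) the acetaldehyde side was close to 0, whereas MMP28 (0.66 with ethanol and -0.34 with acetaldehyde) lay well to each side. The doses, 25 mM ethanol and 2.5 mM acetaldehyde, differ.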

How the results depend on the processing

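The count of kept members at least 2-fold apart stayed at 2 with ethanol, 0 with acetaldehyde and 1 between the controls under joint quantile normalization, centring, the offset, the mean of probe sets and no filter. Against control 2 in place of control 1 the ethanol count was 1 and MMP2 turned to -0.0487, while ADAM12 was at 1.72. Against control 1 the acetaldehyde count was 1 (MMP2 at 1.46). These exchanges set arrays of different scale against each other. At 1.5-fold the counts were 6 with ethanol and 4 between the controls. Of 170 single-member values under these alternatives 155 kept their direction and side of 2-fold, 12 below 2-fold turned in sign, 2 passed 2-fold and 1 was reversed. The 2 were that value of MMP2 and, with joint quantile normalization, the dim MMP1 between the controls (-1.01). Without the filter the single values are the same by construction. With the mean of probe sets they are the same for every member but TIMP3, which alone had 2 probe sets. The offset can change a size but not a sign. The 155 therefore includes values that could not move.

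Over all kept genes, the count at least 2-fold apart with ethanol was 340, against 911 with the other control and 1002 at 1.5-fold. With acetaldehyde it was 25, against 998 with the other control, 178 at 1.5-fold and 48 without the filter. Between the controls it was 944, against 2889 at 1.5-fold and 1537 without the filter. The limma fit called 0 members and 0 genes under every alternative run. Without the filter, 3 members (MMP1, MMP2 and ADAM12) and 1949 of 18417 genes had an unadjusted p under 0.05, with a lowest limma adjusted p of 0.452 for a member. This fit pairs each exposure with its own control through the experiment as a block, with 1 residual degree of freedom. Without that block 85 genes had an unadjusted p under 0.05 in limma. Signal near background limits MMP1, MMP9, MMP10 and ADAM12.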
